A study of Mus musculus with 7 samples.

Results

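Cytochrome P450 genes of families 1 to 4 were compared between primary hepatocytes of wild-type mice (WT, n = 4 libraries) and of whole-body Wdr6 knockout mice (WDR6-WKO, n = 3 libraries). A gene was counted as a member where its symbol began with Cyp, a family number from 1 to 4, a subfamily letter and a gene number. By this rule 45 of the 14819 rows of the read-count table were members, in 16 subfamilies, and 3 of them were annotated pseudogenes. All 45 were read well enough to be tested. The GENCODE annotation used here (GRCm38) holds 80 protein-coding genes whose symbols match the rule, and 42 of them were among the members. The other 38 were not analysed here, so the shares below are over the genes with reads in the table.

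In the WDR6-WKO mice exon 2 of Wdr6, which encodes a WD40 repeat protein, was deleted by CRISPR-Cas9 in all tissues, so the deletion was not limited to hepatocytes. The mice were males, and C57BL/6J is the general strain of the study. The study also states a general age for its mice. The background of the knockout line and the age at isolation are not given separately in the sources used here. Cells were isolated by collagenase perfusion, kept overnight in William's E medium with fetal bovine serum and given no treatment. The labels name no separate animals, and p-values measure the spread between these libraries.

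P450s are haem enzymes of the endoplasmic reticulum that insert an oxygen atom into their substrates with electrons from NADPH-cytochrome P450 reductase. Families 1 to 3 hold the main drug- and toxin-metabolizing enzymes of the liver, and family 4 mostly hydroxylates fatty acids and eicosanoids. Many are switched on through the nuclear receptors CAR, PXR and PPARalpha or through the aryl hydrocarbon receptor, many are made mainly in hepatocytes near the central vein, and some differ between male and female mice. Their transcripts are known to decline in cultured hepatocytes. A few members have other tasks, such as Cyp2r1, a vitamin D 25-hydroxylase.

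In the knockout hepatocytes, 15 of the 45 genes were lower, 1 was higher and 29 did not pass the test (edgeR's quasi-likelihood fit, p adjusted by Benjamini and Hochberg's method over all 14779 genes tested, called under 0.05). Over all genes tested, 6.18% were lower and 6.65% were higher. Of the 15, Cyp2c40 and Cyp2c69 had few WDR6-WKO counts and passed the filter on low counts through their WT libraries. Cyp4a10 was close to that filter in WDR6-WKO, at 13, 10 and 16 counts, and kept its call with 10 counts asked of every library. The 15 genes fell by 15.3% to 90.1% in mean level, and they came from the Cyp1a, Cyp2a, Cyp2c, Cyp2d, Cyp2e, Cyp4a, Cyp4f and Cyp4v subfamilies. The single gene that rose was Cyp2f2. The log2 fold change of WDR6-WKO against WT was below 0 for 33 members, or 73.3%, against 48.8% of all genes, and its median was -0.24 over the members and 0.01 over all genes. By mean level in CPM (counts scaled to a common library size by edgeR's TMM method), 2 of 15 members were lower at 2 to 10 CPM, against 3.29% of all genes at that level. The counts were 8 of 12 at 10 to 50 CPM (5.93%) and 2 of 4 above 50 CPM (11%). The 14 members under 2 CPM are not compared in this way, because Cyp2c40 and Cyp2c69 are among them.

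**Figure D1:**
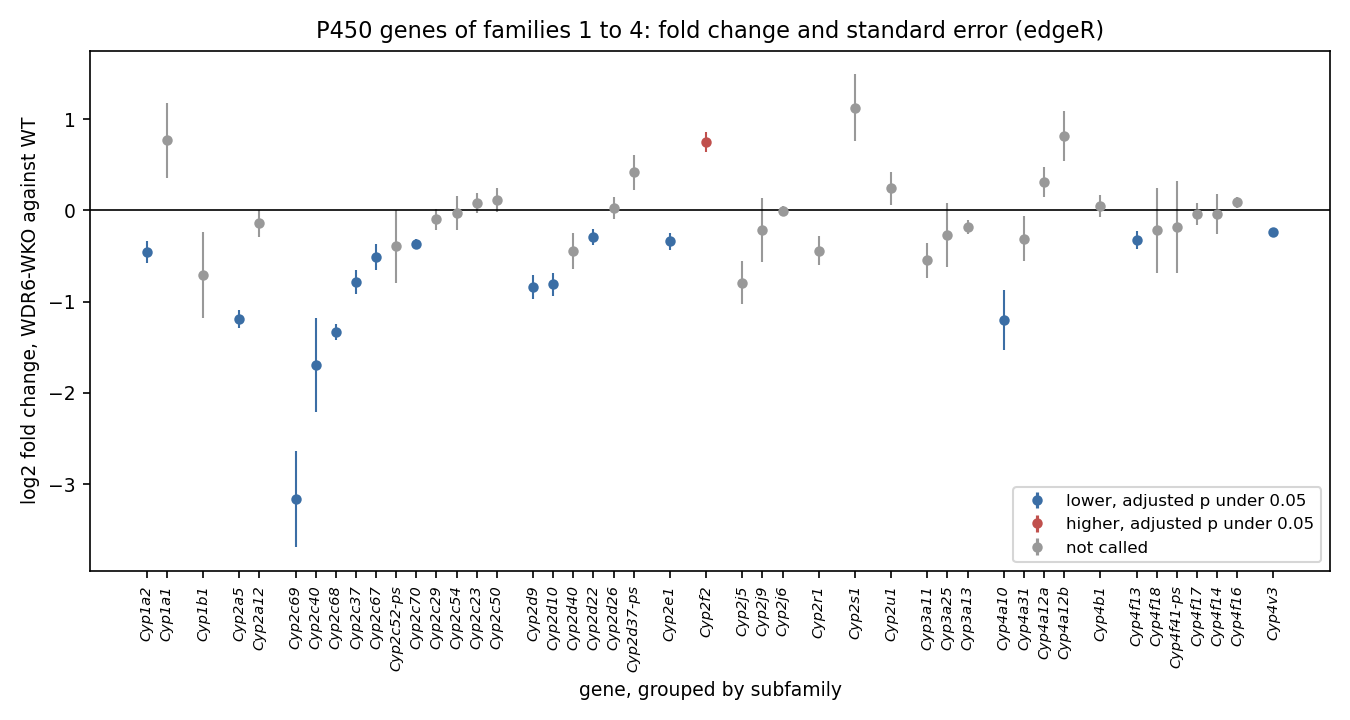
The log2 fold change of each of the 45 genes in WDR6-WKO against WT hepatocytes (y axis), grouped by subfamily (x axis), with bars for the standard error from the edgeR fit. The 15 blue points were called lower and lie between -3.16 and -0.24, the red point is Cyp2f2 at 0.75, and the 29 grey points were not called.

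Paralogs within a subfamily share long stretches of identical sequence, and a read from such a stretch can be counted for either gene. Of the 45 members, 23 shared at least 10% of the 50-base sequences of their longest annotated transcripts with another gene. This was so for 9 of the 15 lower genes, and the other 6 (Cyp1a2, Cyp2c70, Cyp2d22, Cyp2e1, Cyp4f13 and Cyp4v3) shared less. The 60-base coding stretches below are shown because they hold bases by which reads of these paralogs can be told apart. In each set the stretch is the one with the most differences. Apart from Cyp2c40, which differs from Cyp2c68 at only 1 base here, the genes are more alike over their whole coding sequence than these bases show. Each is read 5′ to 3′ on the coding strand from GENCODE transcripts (GRCm38), and capitals mark bases that differ from the reference gene of the set (for the reference gene itself, from the gene compared with it first). The set at coding positions 1060 to 1119, counted in Cyp2c68, has Cyp2c68 as its reference (compared with Cyp2c67):
Cyp2c68: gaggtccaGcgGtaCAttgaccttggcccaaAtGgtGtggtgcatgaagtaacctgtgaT
Cyp2c67: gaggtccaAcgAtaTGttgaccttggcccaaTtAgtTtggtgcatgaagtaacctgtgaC
Cyp2c40: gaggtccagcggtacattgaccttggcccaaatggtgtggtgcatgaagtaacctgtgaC
Cyp2c69: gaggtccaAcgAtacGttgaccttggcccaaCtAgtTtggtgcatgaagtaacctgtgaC
Over the 1473 coding bases compared, Cyp2c40 was 98.1%, Cyp2c67 97.1% and Cyp2c69 96.5% identical to Cyp2c68, and the stretch shown holds 1, 8 and 7 of the differing bases. The pair Cyp2a5 and Cyp2a4, which was 98.4% identical over 1482 coding bases, is shown at coding positions 598 to 657, because Cyp2a4 was not analysed here and reads from it could match Cyp2a5:
Cyp2a5: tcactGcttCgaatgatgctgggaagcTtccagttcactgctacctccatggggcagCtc
Cyp2a4: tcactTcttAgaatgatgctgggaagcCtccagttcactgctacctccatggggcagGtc
The pair Cyp4a12a and Cyp4a12b, 98.5% identical over 1524 coding bases, is shown at coding positions 625 to 684, because these are the male-biased fatty acid hydroxylases described below:
Cyp4a12a: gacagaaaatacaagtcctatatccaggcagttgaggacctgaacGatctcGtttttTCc
Cyp4a12b: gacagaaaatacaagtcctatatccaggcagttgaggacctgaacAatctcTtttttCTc
How the study's counting treated reads that matched several genes is not given in the sources used here, so single values within these groups are uncertain. Subfamilies, and members sharing at least 15% of their 50-base sequences, were also summed. Genes not analysed here, such as Cyp2a4, were outside these sums, and the part of Cyp2a4 reads in the Cyp2a5 value was not tested.

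Wdr6 itself was at 40.6 to 49.0 CPM in the WT libraries and at 2.23 to 2.58 CPM in the WDR6-WKO libraries. Library totals ran from 17816913 to 23668940 counts, and the members took 0.0994% to 0.104% of them in WT and 0.0811% to 0.0892% in WDR6-WKO. Leaving out WDR6-WKO 3 raised the number of genes called over the whole table from 1897 to 4233 (14.1% of genes lower and 14.5% higher). Values without it are given below for most of the members whose call it changed and for several of the gene lists. The hepatocyte markers were present in every library, with a summed level of 8 genes of 15437 to 18435 CPM in WT and 13872 to 16019 CPM in WDR6-WKO, and 4 of the 8 were lower (Apoa1, Asgr1, Cps1 and Fgb). The log2 fold change of all 8 was below 0, with a median of -0.39, against -0.24 over the P450 members. The summed level of 15 Kupffer cell markers was 924 to 1010 CPM in WT and 1070 to 1265 CPM in WDR6-WKO, and 4 of them were higher (C1qb, C1qc, Fcgr1 and Lyz2), or 8 without WDR6-WKO 3. Fewer hepatocytes in a culture and less RNA of a gene per hepatocyte cannot be told apart in these bulk libraries, and the part of the other cell types in the P450 differences was not tested.

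The Cyp2c genes encode drug and arachidonic acid hydroxylases. This subfamily had the largest number of called members, with 6 of 11 lower and none higher, against 6.18% and 6.65% of all genes tested. The 6 are not independent, because 4 of them are the near-identical genes described below. Of those 4, Cyp2c40 and Cyp2c69 passed the filter on low counts through WT. The summed level of the subfamily was 402 to 419 CPM in WT and 281 to 334 CPM in WDR6-WKO, a log2 fold change of -0.43 (SE 0.06, adjusted p = 0.000104, edgeR). Cyp2c70, which hydroxylates chenodeoxycholic acid to the muricholic acids of mouse bile, was the most abundant member per kilobase of transcript in WT, at 179 CPM per kb. It stood at 309, 312, 303 and 309 CPM in the 4 WT libraries and at 228, 224 and 264 CPM in the 3 WDR6-WKO libraries. The groups did not overlap, and Cyp2c70 fell by 0.37 on the log2 scale (SE 0.06, adjusted p = 0.000431). It shared none of its 50-base sequences with another gene, so its count does not depend on paralogs.

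All 4 near-identical genes Cyp2c67, Cyp2c68, Cyp2c40 and Cyp2c69 were lower. Cyp2c68 stood at 43.8, 50.8, 48.9 and 48.2 CPM in WT and at 20.3, 16.1 and 20.6 CPM in WDR6-WKO, a log2 fold change of -1.33 (SE 0.09, adjusted p = 1.48e-07). Cyp2c67 stood at 6.40, 7.17, 7.07 and 8.74 CPM in WT and at 4.70, 5.10 and 5.70 CPM in WDR6-WKO (log2 fold change -0.51, SE 0.14, adjusted p = 0.0246). Every WDR6-WKO library was thus below every WT library for both genes. Cyp2c69, which is known to be higher in female liver, had 19, 26, 38 and 19 counts in WT and 7, 1 and 1 counts in WDR6-WKO. Its log2 fold change of -3.16 (SE 0.52, adjusted p = 0.000884) rests on few reads and became -4.53 without WDR6-WKO 1. Cyp2c40, also female-biased, had 19, 17, 17 and 21 counts in WT and 4, 1 and 13 counts in WDR6-WKO. Its log2 fold change was -1.70 (SE 0.52, adjusted p = 0.0422). Without WDR6-WKO 3 it was -3.04, and the call was lost without any one of the other 6 libraries, with adjusted p of 0.0785 to 0.177.

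Cyp2c67 lost its call without WT 2, WT 4, WDR6-WKO 1 or WDR6-WKO 2, with adjusted p of 0.0526, 0.0852, 0.112 and 0.0826. Summed, the 4 genes stood at 52.1, 60.3, 58.9 and 59.0 CPM in WT and at 25.5, 21.3 and 27.1 CPM in WDR6-WKO. The sum fell by 1.23 on the log2 scale (SE 0.08, adjusted p = 1.78e-07), and it does not depend on how reads were split among the 4.

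A second group, Cyp2c37, Cyp2c50 and Cyp2c54, encodes arachidonic acid-metabolizing enzymes found near the central vein. Cyp2c37 stood at 9.68, 10.0, 7.98 and 9.84 CPM in WT and at 5.98, 4.68 and 5.59 CPM in WDR6-WKO, with no overlap and a log2 fold change of -0.79 (SE 0.13, adjusted p = 0.000945). Cyp2c50 was at 10.7, 15.1, 11.2 and 10.7 CPM in WT and at 13.3, 11.3 and 14.2 CPM in WDR6-WKO (log2 fold change 0.12, adjusted p = 0.607). Cyp2c54 was at 3.48, 2.57, 2.98 and 2.71 CPM in WT and at 3.41, 2.60 and 2.57 CPM in WDR6-WKO (log2 fold change -0.03, adjusted p = 0.944). Only Cyp2c37 of the 3 was called. Cyp2c37 and Cyp2c50 shared 21.1% of the 50-base sequences of Cyp2c37, and when the 3 genes were summed the log2 fold change was -0.19 (SE 0.10, adjusted p = 0.202). The sum was thus not called, and whether read assignment within the group plays a part in the Cyp2c37 value was not tested.

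Of the other Cyp2c genes, Cyp2c29, a pericentral gene induced through CAR, stood at 8.42, 9.69, 8.62 and 8.74 CPM in WT and at 8.19, 7.42 and 9.33 CPM in WDR6-WKO, and was not called (log2 fold change -0.10, adjusted p = 0.638). Cyp2c23 had a mean of 9.11 CPM in WT and 9.67 CPM in WDR6-WKO, and the pseudogene Cyp2c52-ps had 0.798 and 0.617 CPM. Neither was called. In their order along chromosome 19, the 5 genes Cyp2c67, Cyp2c68, Cyp2c40, Cyp2c69 and Cyp2c37 followed each other among the genes in the table and were all lower (chr19:39608842-40012243, GRCm38). Cyp2c29 on one side and Cyp2c54 and Cyp2c50 on the other were not called. These neighbours include the near-identical genes, and Cyp2c40 and Cyp2c69 passed the filter on low counts through WT, so the run is a description of positions and not 5 independent measurements.

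**Figure D2:**
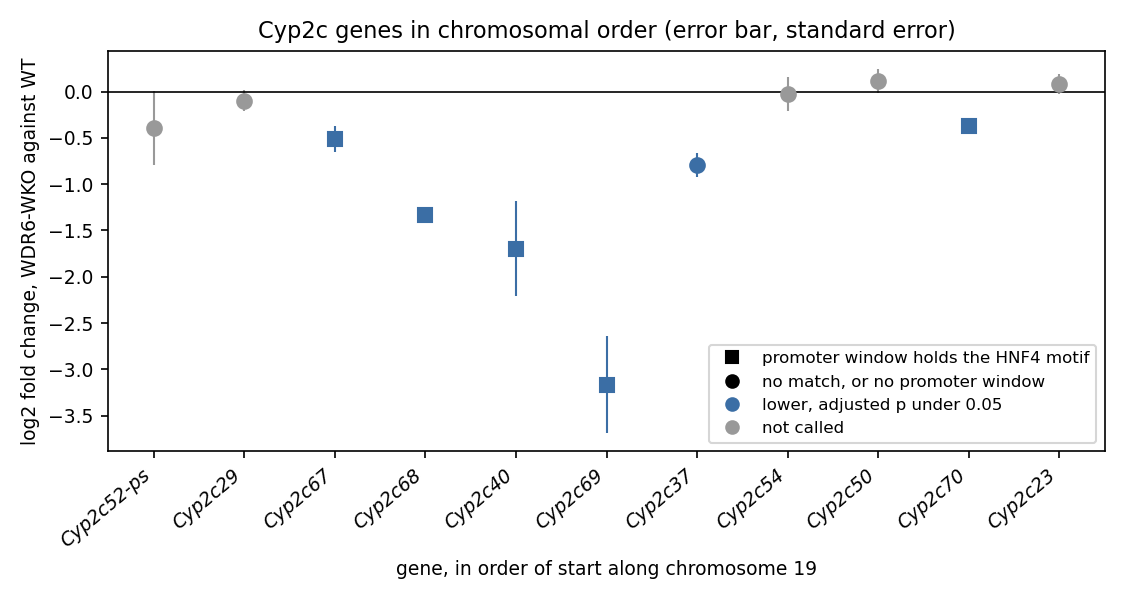
The log2 fold change in WDR6-WKO against WT (y axis) of the 11 Cyp2c genes in order of their start on chromosome 19 (x axis, evenly spaced), with bars for the standard error. Squares mark genes whose promoter window holds the HNF4 motif, and the 5 neighbouring genes from Cyp2c67 to Cyp2c37 were all lower.

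RefSeq promoter windows (GRCm38.p6, 250 bases before to 50 after the start) were found for 33 of the 45 members. The motif CAAAGTCCA, one form of the site of the hepatocyte nuclear receptor HNF4, was searched on both strands and was found in 129 of all 27025 promoters, or 0.477%. It was present in 6 of the 33 member promoters, those of the lower genes Cyp2c40, Cyp2c67, Cyp2c68, Cyp2c69 and Cyp2c70 and of Cyp3a11, which was not called. None of these matches overlapped a match of another motif searched. The windows of the Cyp2c genes are shown on the minus strand of chromosome 19 with the motif in capitals, because the bases around the motif are nearly the same in the 4 near-identical genes and different in Cyp2c70:
Cyp2c67, chr19:39649143-39649183: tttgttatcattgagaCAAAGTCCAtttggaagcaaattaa
Cyp2c68, chr19:39741154-39741194: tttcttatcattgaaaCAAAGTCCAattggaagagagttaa
Cyp2c40, chr19:39812835-39812875: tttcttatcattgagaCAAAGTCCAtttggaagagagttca
Cyp2c69, chr19:39886820-39886860: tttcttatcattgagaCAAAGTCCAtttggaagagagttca
Cyp2c70, chr19:40187326-40187366: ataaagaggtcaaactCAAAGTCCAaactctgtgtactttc
Of the 13 lower genes with a promoter window, 9 held TATAAA (14.2% of all promoters), 5 held TTGCNNAA, a C/EBP motif (10.8%), 4 held the HNF1 half-site GTTAAT (7.20%), 2 held the nuclear receptor half-site AGGTCA (16%) and 2 held GCGTG, the core bound by the aryl hydrocarbon receptor (32.5%). Of the 19 members with a window that were not called, 7 held TATAAA, 3 TTGCNNAA, 1 GTTAAT, 5 AGGTCA and 6 GCGTG. Among the lower genes, the near-identical Cyp2c genes gave 4 of the 5 HNF4 matches, so these are not independent. They also gave 3 of the 5 C/EBP matches and 3 of the 4 HNF1 matches, and TATAAA lay after the annotated start in Cyp2c40 and Cyp2c69. These are matches of letters and do not show binding.

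The Cyp2a and Cyp2f genes lie together on chromosome 7 in the order Cyp2a5, Cyp2a12 and Cyp2f2. The first was lower, the middle one was not called and the last was higher. Cyp2a5, a pericentral coumarin and nicotine hydroxylase (chr7:26835305-26843548), stood at 32.0, 27.0, 28.1 and 26.2 CPM in WT and at 13.3, 13 and 10.7 CPM in WDR6-WKO. It fell by 1.19 on the log2 scale (SE 0.10, adjusted p = 1.12e-06), and the groups did not overlap. Cyp2a5 shared 31.0% of its 50-base sequences with Cyp2a4, a female-biased gene not analysed here. Cyp2a12, a bile acid hydroxylase, had a mean of 8.65 ± 1.68 CPM (SD, n = 4) in WT and 7.85 ± 0.824 CPM (n = 3) in WDR6-WKO and was not called. Cyp2f2, a naphthalene oxidase also abundant in airway club cells and known in liver from cells near the portal tract (chr7:27119909-27133660), stood at 7.26, 9.06, 6.81 and 7.38 CPM in WT and at 12.6, 12.7 and 13.2 CPM in WDR6-WKO. All 3 WDR6-WKO libraries were above all 4 WT libraries, and the log2 fold change was 0.75 (SE 0.11, adjusted p = 0.000381). An annotated antisense gene, Gm15883, holds 10.0% of its 50-base sequences, and whether counting used strand is not given in the sources used here.

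**Figure D3:**
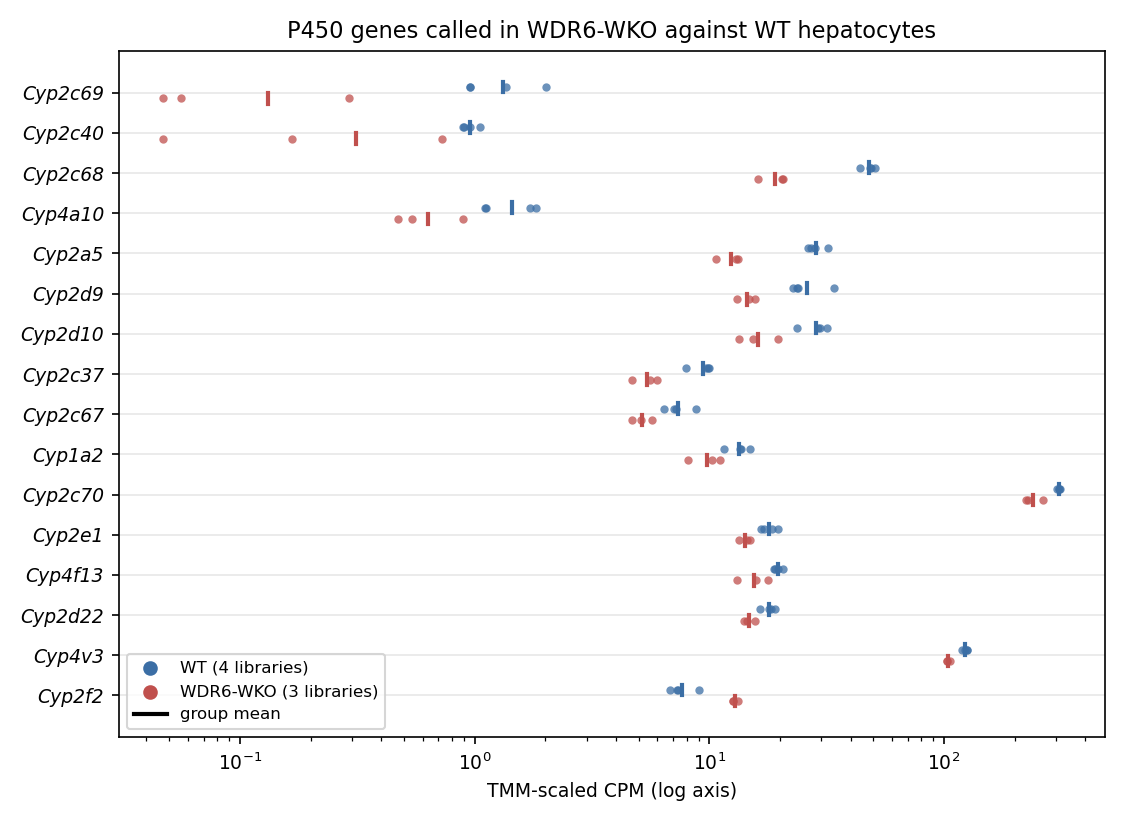
The level of the 16 called genes in each library, as TMM-scaled CPM on a log axis (x axis), with WT libraries in blue, WDR6-WKO libraries in red and a bar at each group's mean. For each of the 16 genes the groups do not overlap, and only Cyp2f2 has its WDR6-WKO libraries above its WT libraries.

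Of the 6 Cyp2d genes, whose human relative metabolizes many psychiatric and cardiac drugs, 3 were lower and none was higher. Cyp2d10 stood at 23.5, 29.5, 31.6 and 28.9 CPM in WT and at 19.6, 15.3 and 13.4 CPM in WDR6-WKO, a log2 fold change of -0.81 (SE 0.13, adjusted p = 0.00079). Cyp2d9, a male-biased steroid 16-alpha-hydroxylase, stood at 22.7, 23.5, 34.1 and 23.9 CPM in WT and at 15.7, 14.7 and 13.1 CPM in WDR6-WKO, a log2 fold change of -0.84 (SE 0.14, adjusted p = 0.00116). Neither gene had overlapping groups. The coding sequences of the pair were 92.5% identical, and each shared more 50-base sequences with a gene not analysed here (Cyp2d10 25.9% with Cyp2d11, Cyp2d9 10.7% with Cyp2d12) than with the other. Cyp2d22 stood at 19.1, 16.4, 18.3 and 17.9 CPM in WT and at 14.5, 14 and 15.6 CPM in WDR6-WKO (log2 fold change -0.29, SE 0.09, adjusted p = 0.0418). That call was lost without any one of the libraries other than WT 2 and WDR6-WKO 3, with adjusted p of 0.0893 to 0.154. Cyp2d26, Cyp2d40 and the pseudogene Cyp2d37-ps were not called, with log2 fold changes of 0.03, -0.45 and 0.42. The summed level of the subfamily was 92.6 ± 8.52 CPM in WT and 65.8 ± 5.59 CPM in WDR6-WKO (log2 fold change -0.49, SE 0.07, adjusted p = 0.000452).

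Cyp2e1, the ethanol- and acetaminophen-oxidizing enzyme of pericentral hepatocytes, and Cyp1a2, which oxidizes caffeine and aromatic amines in the same zone, both fell. Cyp2e1 stood at 16.6, 18.4, 19.6 and 17.2 CPM in WT and at 14.4, 13.3 and 14.9 CPM in WDR6-WKO (log2 fold change -0.34, SE 0.09, adjusted p = 0.0227). Cyp1a2 stood at 13.6, 14.9, 11.6 and 13.7 CPM in WT and at 11.1, 8.13 and 10.2 CPM in WDR6-WKO (log2 fold change -0.45, SE 0.12, adjusted p = 0.0227). The groups did not overlap for either gene, although the highest WDR6-WKO library came close to the lowest WT library. The call on Cyp2e1 was lost without WT 2, WT 3, WDR6-WKO 1 or WDR6-WKO 2 (adjusted p = 0.0665, 0.0799, 0.062 and 0.105), and that on Cyp1a2 without WT 1, WT 2, WT 4 or WDR6-WKO 2 (adjusted p = 0.0528, 0.0773, 0.063 and 0.124). The other family 1 genes were near the lower end of detection. Cyp1a1, the classical aryl hydrocarbon receptor target, had 4 to 13 counts in the WT libraries and 11 to 18 in the WDR6-WKO libraries, with a log2 fold change of 0.77 (SE 0.41, adjusted p = 0.236). Cyp1b1, an oestrogen hydroxylase more typical of non-parenchymal cells, stood at 0.403, 0.524, 1.17 and 0.602 CPM in WT and at 0.665, 0.236 and 0.279 CPM in WDR6-WKO, with overlapping groups. Cyp1a1 passed the filter on low counts through its WDR6-WKO libraries, and Cyp1b1 mainly through its WT libraries. Nothing is therefore read from the values of either gene. The Cyp1a sum had a log2 fold change of -0.40 (SE 0.12, adjusted p = 0.0413), and it lost its call without the same 4 libraries as Cyp1a2 (adjusted p = 0.0826, 0.129, 0.0949 and 0.201).

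The Cyp3a subfamily, which holds the mouse counterparts of the main human drug-metabolizing P450, had no called member. Cyp3a13 was the second most abundant member per kilobase, at 45.8 CPM per kb in WT. It stood at 129, 134, 139 and 140 CPM in WT and at 106, 114 and 140 CPM in WDR6-WKO, so 1 WDR6-WKO library lay within the WT range (log2 fold change -0.18, SE 0.08, adjusted p = 0.151). Without that library, WDR6-WKO 3, its log2 fold change was -0.31 (adjusted p = 1.57e-05), and that of the Cyp3a sum went from -0.19 (adjusted p = 0.13) to -0.32 (adjusted p = 8.4e-06). Cyp3a11, the main PXR target in mouse liver, stood at 4.13, 3.67, 5.48 and 3.51 CPM in WT and at 2.66, 2.65 and 3.35 CPM in WDR6-WKO. Its groups did not overlap, but the difference missed the threshold (log2 fold change -0.55, SE 0.19, adjusted p = 0.071) and passed it without WDR6-WKO 3 (-0.66, adjusted p = 0.0152). Cyp3a25 was at 0.908, 0.681, 1.33 and 1.36 CPM in WT and at 1.08, 0.473 and 1.12 CPM in WDR6-WKO, with overlapping groups.

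The Cyp4a genes encode fatty acid omega-hydroxylases, and 1 of them, Cyp4a10, passed the test. Cyp4a10, a PPARalpha target, stood at 1.71, 1.83, 1.12 and 1.10 CPM in WT and at 0.540, 0.473 and 0.894 CPM in WDR6-WKO, a log2 fold change of -1.20 (SE 0.33, adjusted p = 0.024). These are 21 to 35 counts in WT and 10 to 16 in WDR6-WKO, and the call was lost without WT 1, WT 2, WDR6-WKO 1 or WDR6-WKO 2 (adjusted p = 0.0675, 0.0767, 0.102 and 0.118). Cyp4a31, with which Cyp4a10 shares 15.3% of its 50-base sequences, had means of 1.34 and 1.08 CPM and was not called, and the sum of both genes fell by 0.70 on the log2 scale (SE 0.21, adjusted p = 0.036). The male-biased Cyp4a12a was at 4.18, 2.98, 3.51 and 3.56 CPM in WT and at 3.86, 4.39 and 5.08 CPM in WDR6-WKO (log2 fold change 0.31, adjusted p = 0.234). Cyp4a12b was at 1.16, 0.943, 0.691 and 1.15 CPM in WT and at 1.5, 1.46 and 2.35 CPM in WDR6-WKO (log2 fold change 0.82, SE 0.27, adjusted p = 0.0643). Their sum had a log2 fold change of 0.44 (SE 0.16, adjusted p = 0.076). The whole Cyp4a subfamily summed to 7.33 ± 0.603 CPM in WT and 7.94 ± 1.41 CPM in WDR6-WKO and was not called. Its log2 fold change of 0.10 became -0.04 without WDR6-WKO 3.

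Among the remaining family 4 genes, Cyp4v3, a fatty acid hydroxylase whose human counterpart is mutated in a retinal dystrophy, was abundant and moved little but evenly. It stood at 119, 125, 125 and 123 CPM in WT and at 103, 103 and 106 CPM in WDR6-WKO, a fall of 0.24 on the log2 scale (SE 0.05, adjusted p = 0.00413). Cyp4f13, of the leukotriene-hydroxylating Cyp4f subfamily, stood at 18.9, 19.7, 19 and 20.5 CPM in WT and at 17.8, 15.8 and 13.1 CPM in WDR6-WKO (log2 fold change -0.32, SE 0.10, adjusted p = 0.0445). Cyp4f13 kept its call only without WDR6-WKO 1 and lost it without any one of the other 6 libraries, with adjusted p of 0.0662 to 0.122. The most abundant Cyp4f gene per kilobase, Cyp4f16, stood at 40.1, 41.8, 41.3 and 40.8 CPM in WT and at 42.5, 45.6 and 42.8 CPM in WDR6-WKO. Its groups did not overlap, but its log2 fold change of 0.09 (SE 0.06) did not pass the test (adjusted p = 0.355). Cyp4f14, Cyp4f17, Cyp4f18 and Cyp4f41-ps were not called, with log2 fold changes from -0.22 to -0.04. The Cyp4f sum was 73.7 ± 1.41 CPM in WT and 71.8 ± 2.55 CPM in WDR6-WKO (log2 fold change -0.04, SE 0.05, adjusted p = 0.702). Cyp4b1 was at 19, 17.1, 17.7 and 20.4 CPM in WT and at 22.5, 20.2 and 14.4 CPM in WDR6-WKO, and its WDR6-WKO libraries lay on both sides of the WT range.

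The remaining family 2 genes held no called member. Cyp2j6, an arachidonic acid epoxygenase, was steady at 65.1, 70.7, 68.4 and 71.8 CPM in WT and 67.2, 70.1 and 68.7 CPM in WDR6-WKO (log2 fold change -0.01, SE 0.06, adjusted p = 0.952). Its paralog Cyp2j5 lay between 5.45 and 12.4 CPM in WT and between 4.91 and 6.03 CPM in WDR6-WKO, and narrowly missed the threshold (log2 fold change -0.79, SE 0.24, adjusted p = 0.0538). It passed without WT 1, its lowest WT library (-0.98, adjusted p = 0.000958). Cyp2r1 stood at 8.12, 8.64, 7.76 and 8.84 CPM in WT and at 5.19, 5.10 and 8.32 CPM in WDR6-WKO. Only WDR6-WKO 3 lay within the WT range, and without it the log2 fold change went from -0.44 (adjusted p = 0.0827) to -0.70 (adjusted p = 0.000344). Cyp2s1 had 6, 10, 6 and 6 counts in WT and 19, 14 and 17 in WDR6-WKO (log2 fold change 1.13, SE 0.37, adjusted p = 0.055), and passed without WT 2 (1.35, adjusted p = 0.0489). Cyp2s1 passed the filter on low counts through its WDR6-WKO libraries, so nothing is read from its values. Cyp2u1, a long-chain fatty acid hydroxylase, was at 3.63, 3.19, 2.92 and 3.16 CPM in WT and at 3.16, 3.59 and 4.8 CPM in WDR6-WKO, with overlapping groups and a log2 fold change of 0.24 that became 0.06 without WDR6-WKO 3. Cyp2j9 had means of 0.892 CPM in WT and 0.747 CPM in WDR6-WKO.

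**Figure D4:**
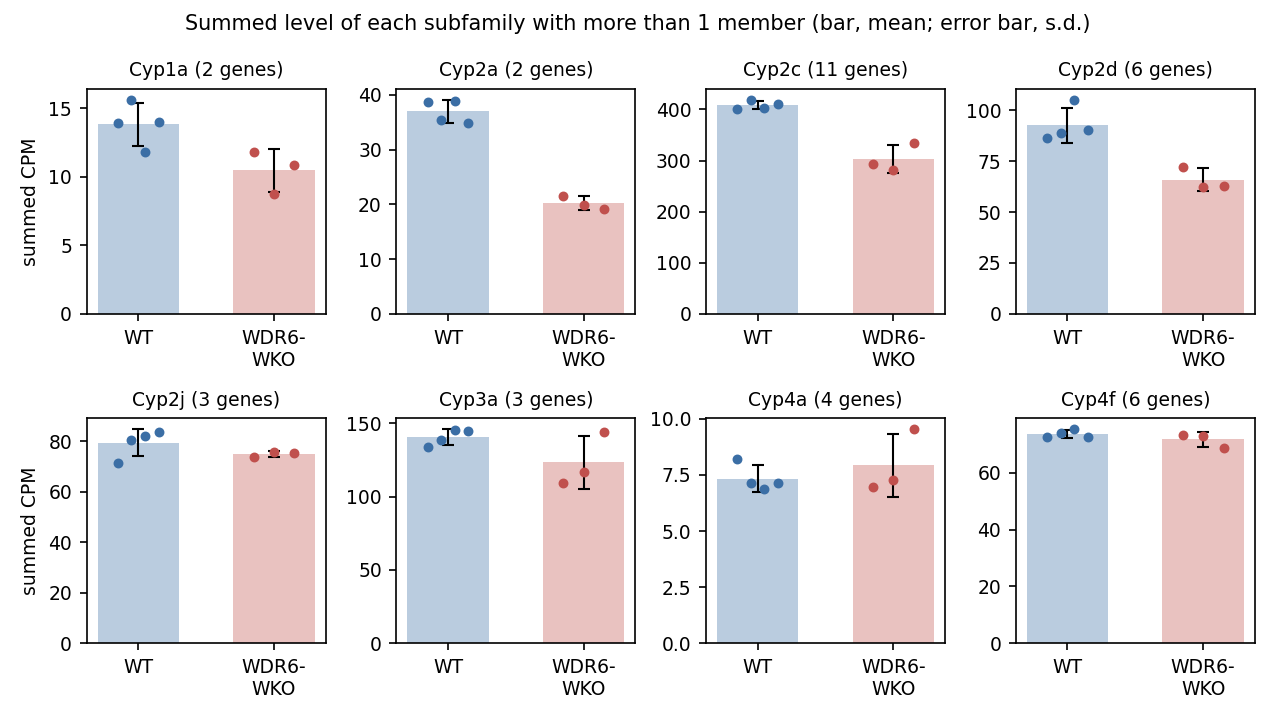
The summed level in CPM (y axis, from 0) of each of the 8 subfamilies with more than 1 member in WT and WDR6-WKO hepatocytes (x axis), with a bar for the mean, an error bar for the s.d. and a point for each library. The Cyp1a, Cyp2a, Cyp2c and Cyp2d sums were lower in WDR6-WKO, and the Cyp2j, Cyp3a, Cyp4a and Cyp4f sums were not called.

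Of the 8 subfamilies with more than 1 member, 4 sums were lower and none was higher. The Cyp2a sum, which holds Cyp2a5 and Cyp2a12 but not Cyp2a4, fell most. It went from 37.0 ± 2.11 CPM (SD, n = 4) to 20.2 ± 1.25 CPM (n = 3), a log2 fold change of -0.87 (SE 0.08, adjusted p = 1.95e-06). The Cyp2j sum was 79.4 ± 5.43 CPM in WT and 74.9 ± 1.04 CPM in WDR6-WKO (log2 fold change -0.08, SE 0.06, adjusted p = 0.396). With the thresholds named in the study's methods (absolute log2 fold change from 0.35 and unadjusted P below 0.05), 15 members were lower and 4 higher, against 3.94% and 6.42% of all genes. The lower genes were not the same 15 as above. Cyp2d22, Cyp2e1, Cyp4f13 and Cyp4v3 dropped out, and Cyp2d40, Cyp2j5, Cyp2r1 and Cyp3a11 came in. The higher genes were Cyp2f2, Cyp2d37-ps, Cyp4a12b and Cyp2s1, and nothing is read from Cyp2s1. By range alone, the groups did not overlap for 16 members with WDR6-WKO lower and 4 with WDR6-WKO higher, against 11.7% and 11.8% of all genes. In the exact two-sided permutation test over the 35 splits of 7 libraries, which cannot go below 0.0286, 14 of the 16 called genes reached that value.

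Genes that serve or regulate P450s were examined next. Por, the reductase (named, like Hnf4a below, after its values were seen), had a log2 fold change of -0.02 (adjusted p = 0.844), and of 8 genes for electron donors and haem supply 2 were lower, both haem synthesis enzymes, and 1 was lower without any one WT library or without WDR6-WKO 2. Fech, ferrochelatase, fell by 0.21 (SE 0.05, adjusted p = 0.0123) and Alas1, which makes the first precursor, by 0.18 (SE 0.05, adjusted p = 0.0291) on the log2 scale. Of 20 tested nuclear receptors and other regulators of P450 genes, 8 were lower and none was higher, and their median log2 fold change was -0.17. The count was 4 without WT 2 and 5 without WT 1 or WDR6-WKO 2. The aryl hydrocarbon receptor Ahr was at 228 ± 5.81 CPM in WT and 160 ± 15.1 CPM in WDR6-WKO (log2 fold change -0.51, SE 0.06, adjusted p = 3.34e-05). Onecut1, a hepatocyte transcription factor also called HNF6, had a log2 fold change of -1.18 (SE 0.18, adjusted p = 0.00044), and Nr0b2, the corepressor SHP, -0.82 (SE 0.17, adjusted p = 0.00403). Hnf4a went from 385 ± 11.4 to 320 ± 27.7 CPM (log2 fold change -0.27, SE 0.06, adjusted p = 0.00502). The CAR gene Nr1i3 was not analysed here.

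Genes that share regulators with the P450s were mixed. Of 19 tested PPARalpha targets outside the P450s, 2 were lower and 2 higher. The counts were 4 and 3 without WDR6-WKO 3, 1 and 2 without WT 2, and 2 and 1 without WDR6-WKO 2, and the shares of all genes were 6.18% lower and 6.65% higher with every library and 14.1% and 14.5% without WDR6-WKO 3. The thioesterase gene Acot2 rose by 0.64 (SE 0.11) and Angptl4 by 0.26 (SE 0.06) on the log2 scale. Over the whole list the log2 fold changes ran from -1.28 to 0.64. Of 13 tested CAR and PXR targets outside the P450s, 4 were lower and 2 higher, and the glutathione transferase Gstm1 had the smallest p (log2 fold change -0.40, SE 0.05, adjusted p = 0.00013). The counts were 2 and 1 without WT 2 or WDR6-WKO 2, 3 and 1 without WT 3, 4 and 1 without WT 4, and 3 and 0 without WDR6-WKO 1. Of 2 tested aryl hydrocarbon receptor targets, Tiparp was higher (log2 fold change 0.34, SE 0.08, adjusted p = 0.0163), but not without WT 4.

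By position in the liver lobule, 4 of 9 tested pericentral P450s were lower (Cyp1a2, Cyp2a5, Cyp2c37 and Cyp2e1) and none was higher, with a median log2 fold change of -0.34, and 2 were lower without WT 2 or WDR6-WKO 2. Of 9 tested pericentral genes outside the P450s, 6 were lower and none higher, with a median of -0.38, and Glul, glutamine synthetase, was at 224 ± 8.93 CPM in WT and 150 ± 6.89 CPM in WDR6-WKO (log2 fold change -0.58, SE 0.05). Of 9 tested periportal genes, 3 were higher and 2 lower, with a median of 0.07. Cps1, the first enzyme of the urea cycle, fell by 0.69 on the log2 scale (SE 0.09). Of the 3 male-biased P450s 1 was lower, Cyp2d9, and the female-biased P450s tested were only the near-identical pair Cyp2c40 and Cyp2c69, which passed the filter on low counts through their WT libraries, so nothing is read from them as a group. Among 10 P450s outside families 1 to 4, 3 were lower and 1 higher, with a median log2 fold change of -0.30, against 15 lower and 1 higher of 45 in families 1 to 4. Of the 10, 1 was lower without WT 1 or WT 4.

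Other lists of genes were examined in the same libraries. All 19 interferon-stimulated genes were higher, with a median log2 fold change of 1.33 and a summed level of 290 to 322 CPM in WT and 628 to 682 CPM in WDR6-WKO. Of 12 acute phase genes, 5 were higher and 1 lower, and 3 were higher without WT 1, WT 2, WT 4 or WDR6-WKO 1, with 2 lower without WT 1. Of 15 genes of hepatocyte dedifferentiation in culture, 2 were lower (Krt8 and Krt18) and none was higher, with a median of 0.01, and without WDR6-WKO 3 the counts were 3 lower and 4 higher, where 14.1% and 14.5% of all genes were. Of 9 stellate cell markers 2 were higher (Acta2 and Dcn), of 6 cholangiocyte markers 2 (Sox9 and Spp1) and of 9 sinusoidal endothelial markers none, and no marker of these lists had a mean of 0 in either group. Of the stellate cell markers, 1 was higher without WT 1, WT 2, WDR6-WKO 1 or WDR6-WKO 2, and of the cholangiocyte markers, 1 was higher without any one of these libraries or WT 3. Without WDR6-WKO 3, 1 cholangiocyte marker was lower, 4 stellate cell markers were higher, and all 19 interferon-stimulated genes were again higher. The part of these groups in the P450 values was not tested.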

How the data were processed

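RNA of cultured hepatocytes was sequenced in 4 WT and 3 WDR6-WKO libraries. The authors made NEBNext Ultra libraries, mapped reads to mm10 with Bowtie2 (2.2.3 in the submitters' processing notes) and deposited raw counts per gene for all 7 libraries in 1 table. The counting tool, annotation and strand setting are not given in the sources used here. The table holds 14819 rows, each with a total of at least 50 counts, and 21 symbols had been turned into dates. Depth was 17816913 to 23668940 counts per library.

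Groups came from the labels. edgeR (4.0.16, R 4.3.3; TMM, filterByExpr, robust quasi-likelihood fit, genotype only) was run on all rows, p-values were Benjamini-Hochberg adjusted over the 14779 genes tested, and subfamily sums replaced their rows in the same fit. The biological coefficient of variation was 7.40%, which limits the differences that could be called. The study's methods name DESeq2, which was an alternative here (1.42.0), with limma-voom (3.58.1), other scalings and filters, a replicate block and leaving out each library. The code was tested on simulated counts. CPM were TMM-scaled, and CPM per kb used the longest GENCODE vM21 transcript. Shared sequence is the share of a transcript's 50-base sequences found in another gene. Promoter sequences are from RefSeq. Per-library values are given for called genes, for the most abundant member of each subfamily per kilobase and for P450s in the marker lists, and genes outside the families by the 3 smallest p of a list, some of which are not reported here. The members and lists were chosen with earlier results of these data known.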

Additional observations from a re-analysis of the deposited data

Results flagged for a closer look

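In 4 of 53 sets of WT values checked (45 genes and 8 subfamily sums), 1 library lay far from the other 3, measured as its gap to the nearest library divided by the group's whole range. Chance alone flags about 1 in 20 such groups. Cyp2s1 was high in WT 2 (0.920 of the range), at 10 counts against 6 in each of the others. Cyp2d9 was high in WT 3 (0.894 of the range), at 34.1 CPM against 22.7 to 23.9 CPM. Cyp2c50 was high in WT 2 (0.892 of the range), at 15.1 CPM against 10.7 to 11.2 CPM. Cyp2c37 was low in WT 3 (0.841 of the range), at 7.98 CPM against 9.68 to 10.0 CPM. Cyp2d9 and Cyp2c37 kept their calls without WT 3, and Cyp2c50 stayed uncalled without WT 2. Groups of 3 libraries were not checked.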

How the results depend on the processing

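Of the 15 lower genes, 7 were called under every alternative fit that could be run for them. They were Cyp2a5, Cyp2c68, Cyp2c69, Cyp2c70, Cyp2d9, Cyp2d10 and Cyp4v3, and Cyp2f2 was also called in every one. The other 8 lost their call in at least 1, Cyp2c37 only when summed with Cyp2c50 and Cyp2c54 (-0.19). Cyp4v3, at -0.24, did not reach the fold change of 0.35 asked by the study's thresholds. Cyp2c69 passed the filter on low counts through its WT libraries and could not be tested with at least 10 counts asked of every library. Its fit summed with paralogs rested mostly on Cyp2c68, at 47.9 of 57.6 CPM in WT. The place of Cyp2c69 among the 7 is therefore not read as support for its call. The number of lower genes was 8 to 17 when a library was left out (9 without WT 2, 8 without WDR6-WKO 2 and 17 without WDR6-WKO 3, where 605, 462 and 2083 of all genes were lower, against 914 with all libraries) and 6 of 22 among members sharing less than 10% of their sequence. The number of higher genes was 2 with limma-voom and with library sizes alone, 4 with the study's thresholds named above, 0 of 22 among members sharing less than 10%, and 1 to 2 when a library was left out. The Cyp1a sum was not called with library sizes alone (-0.37) or the replicate block (-0.40), and ranged from -0.51 to -0.29 without 1 library. The Cyp3a sum ranged from -0.32 to -0.11, and the Cyp4a sum from -0.0442 to 0.19.

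Signs turned for genes near 0: Cyp4f41-ps with limma-voom (0.10), Cyp2j6 with library sizes alone (0.019) and the replicate block (0.0133), and, chosen after seeing the data, Cyp2c50 when summed with its paralogs (-0.19). With 1 library left out the ranges crossed 0 for Cyp2c54 (-0.19 to 0.0643), Cyp2d26 (-0.11 to 0.10), Cyp2j6 (-0.0349 to 0.0124), Cyp2j9 (-0.54 to 0.0198), Cyp3a25 (-0.46 to 0.0373), Cyp4b1 (-0.10 to 0.20), Cyp4f14 (-0.14 to 0.0655), Cyp4f17 (-0.0948 to 0.0403), Cyp4f18 (-0.52 to 0.21) and Cyp4f41-ps (-0.47 to 0.55). The cause was not tested. The replicate block called 13 genes lower, losing Cyp2c40, Cyp2c67, Cyp4f13 and Cyp2d22 and adding Cyp2j5 and Cyp3a11, but same-numbered libraries correlated at only 0.0256 to 0.0960 and did not all correlate best with their own number, so the numbers were not read as pairs. Counts limit the 14 members with a mean under 2 CPM.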
